A study of Mus musculus with 10 samples.

Results

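The Ccdc genes are named for a coiled-coil domain, and the members described here are every gene of the deposited expression table whose symbol begins with Ccdc followed by a digit. There were 130 such genes among the 15507 genes of the table. All 130 had at least 1 read in every library and all 130 passed the filter on low counts, as did 15389 of all genes. By annotation 128 were protein-coding and 2, Ccdc34os and Ccdc42os, were antisense transcripts, and the members lay on 20 chromosomes.

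RNA was sequenced from germ cells dispersed from the testis of 5 wild-type (WT) mice and 5 homozygous GRTH-knock-in (KI) mice aged 45 days, as 1 library per mouse. The KI allele is a human GRTH gene that bears the mutation R242H. GRTH, also called DDX25, is a testicular RNA helicase, and the comparison of KI with WT addresses which transcripts of germ cells differ when this helicase is altered. The mutation is carried by the whole animal from conception, and none of the libraries comes from mice with an unmutated human gene, so the exchange of the gene and the mutation cannot be told apart.

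A coiled coil is a protein fold in which alpha helices wind around each other like the strands of a rope, and it serves to join proteins into pairs, rods and large scaffolds. The name Ccdc records only that such a fold was predicted from sequence, and the proteins are not one family by descent or by task. Many of them have since been placed in the axoneme (the microtubule core of cilia and of the sperm tail), at the centrosome, in the manchette and the head-to-tail junction of the spermatid, in membrane traffic, in mitochondria, in the nucleus or outside the cell.

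All values are normalized counts, that is reads on the gene divided by the size factor of the library. The libraries held 13323024 to 16422347 reads on genes in WT and 12722086 to 15500582 in KI, and 3 reads were worth 2.61 to 3.62 normalized counts. Mouse Ddx25, the targeted gene, was counted at 7615, 7782, 5198, 11101 and 9458 in the WT libraries and at 146, 194, 161, 2.88 and 1.84 in the KI libraries, so that the genotypes did not overlap (log2 fold change −7.84 ± 1.03 SE, adjusted p = 5.63e-05). The KI libraries 4 and 5 were below the value of 3 reads or equal to it. In both genotypes libraries 4 and 5 stood apart from libraries 1 to 3, as the read-quality table of the study also separates them. When 2 libraries of a genotype were compared, chi-square over its degrees of freedom was 2.67 to 10.1 among libraries 1 to 3 and 22.0 to 47.0 between the sets. Libraries 4 and 5 were less alike than libraries 1 to 3, at 13.5 in WT and 17.3 in KI. Results are therefore also given within each set.

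The label germ cells was checked against markers. Spermatocyte markers summed to 23546 to 31256 normalized counts in WT and 24209 to 28710 in KI, and 0 of 11 were differentially expressed by limma, edgeR or DESeq2, with 2 at an unadjusted p under 0.05. For spermatogonia it was likewise 0 of 8, with 2 at an unadjusted p under 0.05. In each list 1 gene was lower by limma at an adjusted p under 0.05 but less than 1.5-fold. These were Spo11 of spermatocytes (log2 fold change −0.41, adjusted p = 0.0232) and Gfra1 of spermatogonia (−0.48, adjusted p = 0.0202). Markers of spermatids summed to 218236 to 392008 in WT and 35556 to 73695 in KI, and 8 of 11 were down-regulated. The exceptions were Acrv1 (log2 fold change −0.48, adjusted p = 0.174), Izumo1 (−0.13, adjusted p = 0.668) and Spaca1 (−0.53, adjusted p = 0.00604). Of these only Spaca1 passed the adjusted p, at less than 1.5-fold. Leydig cell markers summed to 10875 to 19504 in WT and 15729 to 27046 in KI, with 4 of 7 up-regulated, so RNA of cells other than germ cells was counted in every library. Only listed markers present in the table were examined, and a marker absent from it, such as Nanos3 of spermatogonia, could not be counted. None of those present was at 0 in all libraries, which is no check of detection, since nearly every gene of the table had reads in each library.

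Calls needed both a change of 1.5-fold or more and an adjusted p under 0.05. In KI germ cells 12 of the 130 Ccdc genes were down-regulated, beside 8.22% of all genes tested, which made 9.23% of the members. Another 4 members were up-regulated, beside 6.13% of all genes, which made 3.08% of the members. The fallers were Ccdc91, Ccdc54, Ccdc70, Ccdc187, Ccdc57, Ccdc7a, Ccdc33, Ccdc117, Ccdc28a, Ccdc136, Ccdc92 and Ccdc150, and the risers were Ccdc9b, Ccdc80, Ccdc3 and Ccdc8. The share of fallers was thus near the background and that of risers below it. When each library was scaled to its total instead, 7 members were lower (all genes, 5.13%) and 10 were higher (all genes, 13.9%).

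At any fold, 24 members were lower at an adjusted p under 0.05 (all genes, 13.3%) and 8 were higher (all genes, 9.65%). In 18 members every KI library was below every WT library (all genes, 10.9%), and in 6 every KI library was above (all genes, 6.8%). The median log2 fold change was −0.05 over the members and 0.03 over all genes, a difference of −0.08. The members' own median turned to 0.18 or 0.04 when libraries were scaled to their totals or to the upper quartile, which shifts all genes alike. The difference was −0.16 within libraries 1 to 3 and −0.00079 within libraries 4 and 5. The 130 genes summed to 208210 ± 13541 normalized counts in WT and 168980 ± 15375 in KI (SD, n = 5 each). As a share of all reads they took 1.21% to 1.35% in WT and 1.197% to 1.32% in KI, so the shares overlapped.

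**Figure D1:**
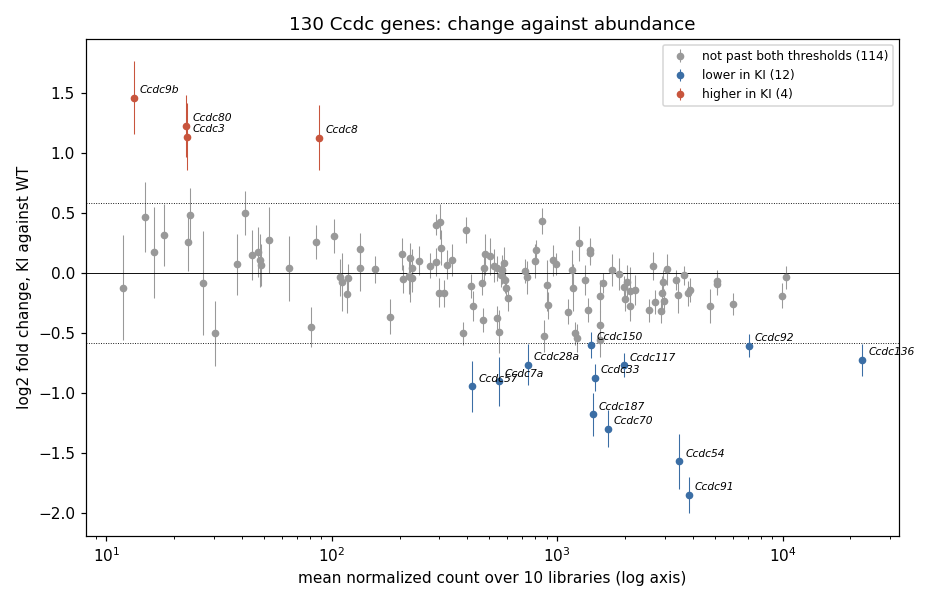
Log2 fold change of KI against WT with its SE (vertical axis) for the 130 Ccdc genes against the mean normalized count over 10 libraries (horizontal log axis). Dotted lines mark a change of 1.5-fold. The 12 fallers (blue) lie at counts above 100, with Ccdc91 lowest at −1.85, and the 4 risers (red) lie at counts below 100.

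Fallers and risers sat at different ends of the range of counts, as the plot of change against mean count shows. These counts are not divided by gene length. Of the 22 members with a mean under 100 normalized counts, 4 rose and 0 fell, beside 12.8% and 7.16% of all genes at that abundance. Of the 58 members with a mean of 100 to under 1000, 3 fell and 0 rose, beside 6.54% and 4.26%. Of the 50 members with a mean of at least 1000, 9 fell and 0 rose, beside 13.1% and 0.635% of all genes.

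The promoters of the members were compared next, because their base composition was not used in choosing the genes. RefSeq promoter sequences (GRCm38.p6, 250 bases before to 50 after each start) were at hand for 105 of the 130 members and for 12139 of the genes tested. The CpG ratio is the number of CG pairs observed over the number given by the C and G content. For a gene with several listed starts, the start with the highest ratio was taken. The median ratio was 0.517 in 10 fallers, 0.469 in 3 risers and 0.755 in 92 members that were not called. Over all genes tested it was 0.461 in genes that fell, 0.561 in genes that rose and 0.778 in the remainder. The members thus followed the order of the whole table in setting the uncalled genes highest, and the measure was chosen after the values were seen and was not tested. The 100 bases before the start are given here for the 4 fallers with the largest changes, with both listed starts of Ccdc91, and for Ccdc92, a faller with a smaller change. Capitals mark each CG pair.
Ccdc91, chr6:147475771-147475870, plus strand: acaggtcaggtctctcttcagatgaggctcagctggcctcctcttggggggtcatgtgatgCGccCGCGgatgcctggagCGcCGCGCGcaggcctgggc
Ccdc91, chr6:147476265-147476364, plus strand: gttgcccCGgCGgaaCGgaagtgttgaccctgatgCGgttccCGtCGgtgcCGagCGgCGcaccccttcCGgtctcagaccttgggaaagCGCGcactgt
Ccdc54, chr16:50591155-50591254, minus strand: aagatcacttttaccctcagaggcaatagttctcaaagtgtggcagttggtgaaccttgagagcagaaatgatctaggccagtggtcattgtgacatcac
Ccdc187, chr2:26294558-26294657, minus strand: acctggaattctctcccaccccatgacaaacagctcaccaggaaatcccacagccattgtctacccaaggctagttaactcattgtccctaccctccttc
Ccdc70, chr8:21969675-21969774, plus strand: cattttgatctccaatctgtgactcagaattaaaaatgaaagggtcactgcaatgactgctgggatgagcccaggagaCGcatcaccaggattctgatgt
Ccdc92, chr5:124862222-124862321, minus strand: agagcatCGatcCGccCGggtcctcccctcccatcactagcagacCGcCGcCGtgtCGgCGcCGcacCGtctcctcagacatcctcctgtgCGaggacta
The upstream 100 bases held 7 and 12 CG pairs at the starts of Ccdc91, 0 in Ccdc54, 0 in Ccdc187, 1 in Ccdc70 and 11 in Ccdc92. Low CpG content was therefore not shared by every faller, and 5 of the 10 fallers with a promoter reached 0.6 at their highest start. Ccdc91, which fell the most, had a ratio of 0.526 at its first start and 0.96 at its second. In Ccdc136, also among the 5, the ratio was 0.152 to 0.619 over the listed starts.

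Motifs were searched in the same promoters on both strands. TGACGTCA, the full cAMP response element bound by CREM and its relatives, was in 3 of 105 members (2.86%) and in 3.42% of all promoters. CAACTG, a MYB motif, was in 11 members (10.5%) and in 13.8% of all promoters, and among fallers in those of Ccdc54 and Ccdc70. GTTGCCA, one side of the X-box read by RFX factors at ciliary genes, was in 12 members (11.4%) and in 5.36% of all promoters. None of the 13 fallers and risers with a promoter held it. A match is a description of the sequence and not a bound site. GTTGCCA lay within the last 50 bases before the start in 5 members. It is shown in capitals with 20 bases on each side for 4 of them, since in Ccdc175, where the match on the other strand begins 7 bases before the start, that window would run past the start.
Ccdc60, chr5:116288997-116289043, minus strand: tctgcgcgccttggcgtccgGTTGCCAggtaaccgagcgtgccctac
Ccdc13, chr9:121839468-121839514, minus strand: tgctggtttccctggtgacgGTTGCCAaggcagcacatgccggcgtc
Ccdc105, chr10:78753073-78753119, minus strand: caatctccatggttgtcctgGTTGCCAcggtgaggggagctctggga
Ccdc184, chr15:98167744-98167790, plus strand: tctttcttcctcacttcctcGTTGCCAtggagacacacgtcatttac
None of the 5 passed both thresholds. Log2 fold changes were −0.03 for Ccdc60, 0.06 for Ccdc13, −0.17 for Ccdc105 and −0.10 for Ccdc184, while Ccdc175 passed the adjusted p at less than 1.5-fold (−0.32, adjusted p = 0.0287).

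Ccdc91, known as a partner of the GGA adaptors that sort cargo at the trans-Golgi network, fell the most. It is on chr6:147475871-147632613 (mm10, plus strand), and in the WT libraries it was counted at 6439.5, 7058, 7830.2, 4272 and 4592. In the KI libraries it was at 1672, 1692, 1606, 1822 and 1401. Even the lowest WT library was far above the highest KI library, and the mean was 72.9% lower (log2 fold change −1.85 ± 0.15 SE, adjusted p = 5.88e-07). The gene shares 7.63% of its exon bases with an antisense transcript, Gm6288, and no source says that strand was used in counting, so reads of the pair cannot be told apart.

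Ccdc54, a gene of a single exon on chr16:50589859-50591155 (minus strand), followed. The WT libraries held 6365, 6786, 6676, 2819 and 3596 and the KI libraries 2001, 1902, 1882, 1419 and 1261. The genotypes did not overlap, but libraries 4 and 5 were lower than libraries 1 to 3 in both genotypes (log2 fold change −1.57 ± 0.23 SE, adjusted p = 0.000145). The antisense transcript 4930542D17Rik covers 18.95% of its exon bases. Its upstream sequence, shown above, holds no CG pair.

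Ccdc70, on chr8:21969775-21974056 (plus strand), was counted at 2516, 2778, 2884, 1946 and 1812 in WT and at 1097, 1069.8, 1061, 925 and 693 in KI. Every KI library was below every WT library (log2 fold change −1.29 ± 0.15 SE, adjusted p = 2.1e-05). Ccdc187, on chr2:26271647-26294558 (minus strand), was counted at 2313, 2370.2, 2663, 1176 and 1589 in WT and at 872, 906, 863, 879 and 770.1 in KI. The KI libraries lay close together, with an SD of 51.6 against 617 in WT, and the WT libraries 4 and 5 were nearest to them (log2 fold change −1.18 ± 0.18 SE, adjusted p = 0.000207). These 4 genes were the only members with a fitted log2 fold change below −1.

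In a bulk sample fewer cells of a type and less RNA per cell cannot be told apart, and these falls stand beside the lower sum of spermatid markers given above, whose part in them was not tested. Spermatid markers did not lie at 0 in KI.

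**Figure D2:**
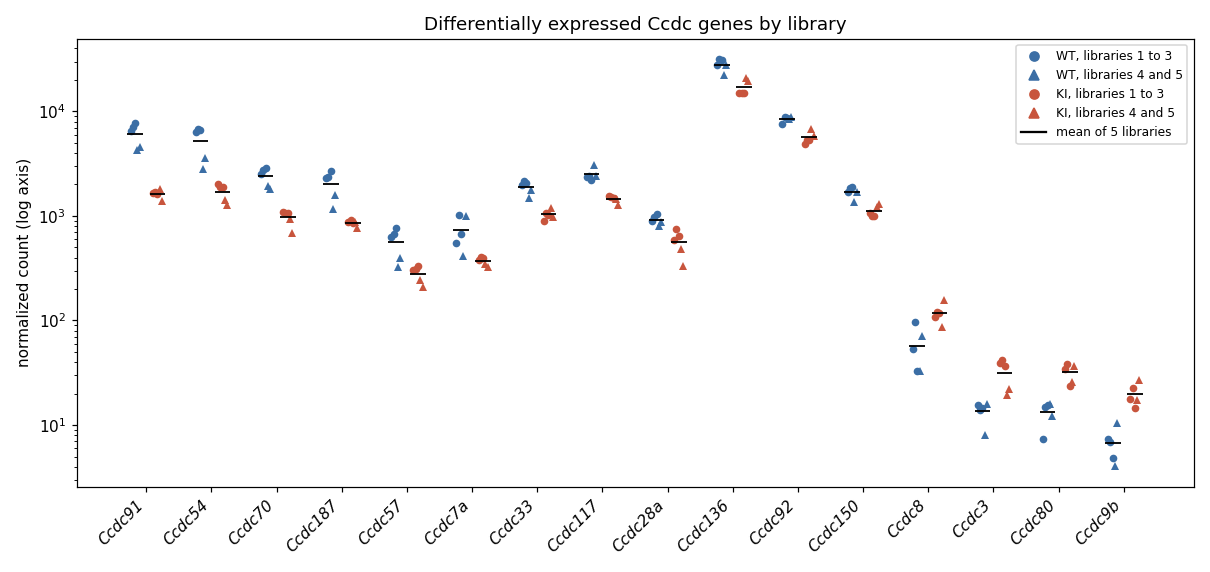
Normalized counts (log axis) of the 16 differentially expressed Ccdc genes in each WT (blue) and KI (red) library, circles for libraries 1 to 3 and triangles for libraries 4 and 5, with the mean of 5 libraries as a bar. The genotypes do not overlap in 14 of the 16 genes, and the exceptions are Ccdc57 and Ccdc8.

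The centrosomal members with a call were Ccdc57, a protein of centrioles and their satellites that acts in microtubule nucleation, and Ccdc92, which binds the centriolar protein CEP164. Ccdc57 was counted at 627, 678, 774, 323 and 399 in WT and at 304, 310.3, 329, 246 and 209 in KI. The WT library 4 lay below the KI library 3, so the genotypes overlapped (log2 fold change −0.94 ± 0.21 SE, adjusted p = 0.00469). Ccdc92 was counted at 7631, 8899, 8731, 8453 and 8876 in WT and at 4928, 5319.7, 5376, 6738 and 5798 in KI. Its WT libraries 4 and 5 were above the WT library 1, and the groups did not overlap (log2 fold change −0.60 ± 0.10 SE, adjusted p = 0.0004). Without the KI library 1 or the KI library 2 it no longer reached 1.5-fold (−0.56 and −0.58).

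Among the 12 members of the sperm formation list, Ccdc136 and Ccdc28a were down-regulated. Ccdc136, needed for the acrosome, was the most abundant member per kilobase of exon and was counted at 27723, 31566, 30826, 22157 and 27926 in WT. In KI it was at 15051, 15049.9, 14909, 20865 and 19439, so that the KI libraries 4 and 5 were the higher ones and the groups still did not overlap (log2 fold change −0.72 ± 0.13 SE, adjusted p = 0.00107). Ccdc28a, which takes part in sperm head and tail form, was counted at 899, 983, 1042, 798 and 875 in WT and at 592, 750.0, 641, 484 and 332 in KI. The groups did not overlap by a narrow margin (log2 fold change −0.76 ± 0.17 SE, adjusted p = 0.00478).

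The remaining fallers were on no list. Ccdc33 was counted at 1957, 2176, 2086, 1496 and 1785 in WT and at 900.0, 1079, 1017, 1203 and 977 in KI (log2 fold change −0.87 ± 0.11 SE, adjusted p = 5.03e-05). It shares 7.10% of its exon bases with the antisense transcript Gm16131 and 6.645% with another, Gm16130, which is itself a gene of the table. Ccdc117 was counted at 2377, 2407, 2205, 3071 and 2403 in WT and at 1561, 1533, 1477, 1442 and 1283 in KI (log2 fold change −0.77 ± 0.10 SE, adjusted p = 5.2e-05). In both genes the groups did not overlap, and Ccdc117 was unusual among the fallers in that its WT library 4 was its highest.

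Ccdc7a was counted at 551, 1017, 679, 418 and 988 in WT and at 376, 409, 396, 344 and 328 in KI, a wide spread in WT and a narrow one in KI (log2 fold change −0.90 ± 0.20 SE, adjusted p = 0.00418). It shares 8.71% of its exon bases with the protein-coding gene Gm3952, and it lies beside its relative Ccdc7b on chromosome 8, so the division of reads is uncertain. Ccdc150 was counted at 1696, 1851, 1877, 1364 and 1687 in WT and at 1056, 1009, 999.7, 1228 and 1313 in KI. The margin was narrow and the change just passed 1.5-fold (log2 fold change −0.60 ± 0.11 SE, adjusted p = 0.00107). It no longer did so without the WT library 2 or 3 or without the KI library 1, 2 or 3, where it was −0.58 to −0.56. The members nearest to the fold threshold on the other side were Ccdc7b at −0.56 (adjusted p = 0.00814) and, upward, Ccdc92b at 0.50 (adjusted p = 0.0617), and no member lay beyond the threshold without passing the test.

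The risers were scarce transcripts. Ccdc8, a subunit of the 3M complex with CUL7 and OBSL1, was counted at 53.3, 97.1, 32.6, 33.1 and 71.5 in WT and at 107.96, 122, 117, 86.5 and 158 in KI. The WT library 2 lay above the KI library 4, so the groups overlapped (log2 fold change 1.13 ± 0.27 SE, adjusted p = 0.00713). Ccdc3 and Ccdc80 encode secreted proteins, the first made by fat and endothelial cells and the second a protein of the extracellular matrix. Ccdc3 was at 8.02 to 16.0 in WT and 19.2 to 41.7 in KI (log2 fold change 1.14 ± 0.28 SE, adjusted p = 0.00831), and a lincRNA on the opposite strand, Gm26776, covers 69.1% of its exon bases. Ccdc80 was at 7.32 to 16.0 in WT and 23.7 to 38.2 in KI (log2 fold change 1.22 ± 0.26 SE, adjusted p = 0.0029). Ccdc9b had the largest change and the lowest level, 4.01 to 10.4 in WT and 14.4 to 26.7 in KI (log2 fold change 1.46 ± 0.30 SE, adjusted p = 0.00258). In these 3 genes the groups did not overlap.

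Some markers of cells outside the germ line rose as well. Macrophage markers summed to 679 to 913 in WT and 974 to 1335 in KI, with 5 of 9 up-regulated, and endothelial markers to 265 to 365 in WT and 424 to 805 in KI, with 2 of 5 up-regulated. Myoid markers summed to 120.2 to 208 in WT and 191 to 236 in KI, with Acta2 and Des up-regulated of 4 tested while Myh11 (−0.30) and Tagln (−0.23) did not pass, and Sertoli markers to 5813 to 9598 in WT and 5913 to 10268 in KI, with 0 of 8 called by limma, edgeR or DESeq2 and 0 at an unadjusted p under 0.05. With the Leydig markers given above, their part in the higher counts of Ccdc3, Ccdc80, Ccdc8 and Ccdc9b was not tested.

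A further 16 members passed an adjusted p under 0.05 at less than 1.5-fold. The 12 lower ones were Ccdc7b, Ccdc183, Ccdc169, Ccdc93, Ccdc27, Ccdc173, Ccdc163, Ccdc103, Ccdc83, Ccdc175, Ccdc189 and Ccdc186, with log2 fold changes of −0.56 to −0.30. Ccdc93, a scaffold of the COMMD/CCDC22/CCDC93 complex that recycles cargo from endosomes, was at 481, 456, 425, 423 and 455 in WT and at 330.1, 324, 355, 301 and 275 in KI. All KI libraries were lower, with small spread in both groups (log2 fold change −0.50 ± 0.10 SE, adjusted p = 0.00151). Its partner Ccdc22 was at 16.9 to 23.1 in WT and 20.2 to 39.1 in KI and did not pass the test (log2 fold change 0.48, adjusted p = 0.149). Ccdc22 shares 86.29% of its exon bases with the transcript Gm36995 on the same strand and 17.22% with Foxp3 on the opposite strand.

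The 4 higher ones were Ccdc154, Ccdc36, Ccdc106 and Ccdc71, with log2 fold changes of 0.36 to 0.44. A transcript on the opposite strand, Gm45133, covers 47.8% of the exon bases of Ccdc106. Ccdc36, known as IHO1, which is needed to form the DNA double-strand breaks of meiosis, was at 246, 244, 241.6, 251 and 267 in WT and at 334, 339.8, 318, 334 and 326 in KI. The groups did not overlap, and their SDs were 10.3 and 8.5 (log2 fold change 0.40 ± 0.09 SE, adjusted p = 0.00379). The other meiotic member, Ccdc155 (KASH5, which ties telomeres to dynein through the nuclear envelope), was at 1308 ± 130 in WT and 1499 ± 167 in KI (SD, n = 5; adjusted p = 0.185).

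Of the 12 axonemal members 0 were differentially expressed by both thresholds, beside 8.22% lower and 6.13% higher among all genes, so that a count of 0 is near the background. They had log2 fold changes from −0.43 to 0.17 and a median of −0.17 (0.06 when scaled to library totals). At an unadjusted p under 0.05 limma gave 4 of them, and edgeR and DESeq2 also called 0. The 3 with an adjusted p under 0.05 were Ccdc173, a protein inside the doublet microtubules (−0.43 ± 0.12 SE, adjusted p = 0.0138), Ccdc103, an assembly factor of dynein arms (−0.38 ± 0.11 SE, adjusted p = 0.018), and Ccdc189 (−0.31 ± 0.10 SE, adjusted p = 0.0318). The protein-coding gene Phkg2 on the opposite strand covers 25.57% of the exon bases of Ccdc189, so reads of that pair cannot be told apart. Ccdc39 and Ccdc40, the paired ruler that sets the spacing along the axoneme, stood at −0.17 ± 0.10 and 0.03 ± 0.13 and did not pass. Ttc14 on the opposite strand covers 16.87% of the exon bases of Ccdc39. Ccdc114 and Ccdc151, which dock the outer dynein arm, stood at 0.08 ± 0.13 and 0.17 ± 0.10 and did not pass.

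Ccdc65, a subunit of the nexin-dynein regulatory complex, was counted at 5188, 5349.6, 5128, 5309 and 5251 in WT and at 4427, 4989, 4626, 5903 and 5241 in KI. The WT libraries were nearly level and the KI libraries lay on both sides of them (log2 fold change −0.07 ± 0.09 SE, adjusted p = 0.664). Its sign turned when libraries were scaled to their totals (0.16) or to the upper quartile (0.03) and within libraries 4 and 5 (0.08).

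**Figure D3:**
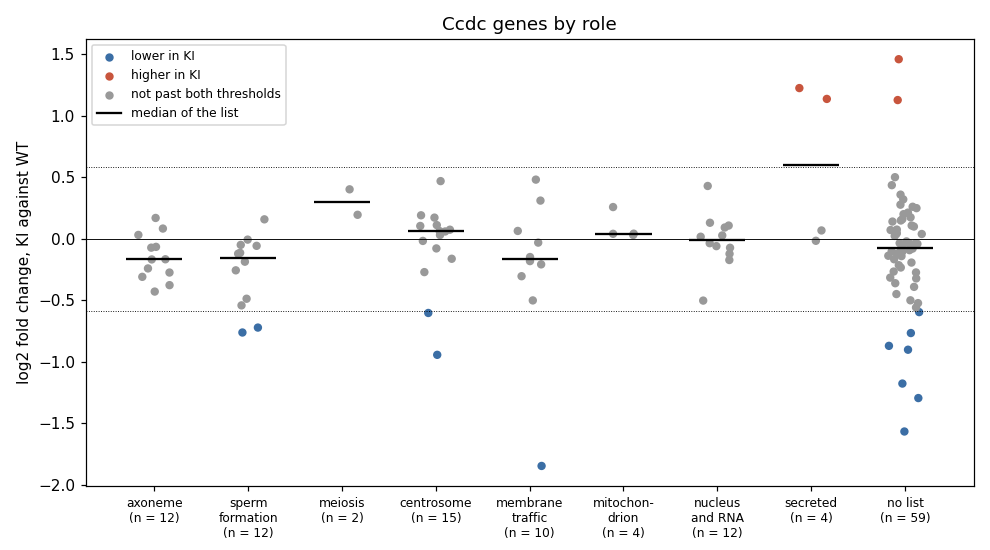
Log2 fold change of KI against WT (vertical axis) for each of the 130 Ccdc genes by role, with the median of each list as a bar and dotted lines at 1.5-fold. The 12 axonemal genes stay between the dotted lines, and the medians of axoneme (−0.17), sperm formation (−0.15) and membrane traffic (−0.16) turn to 0.06, 0.08 and 0.06 when libraries are scaled to their totals.

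Of the other lists, sperm formation had 2 fallers of 12 and centrosome 2 of 15. The 10 members of membrane traffic had 1 faller, Ccdc91, and the 4 secreted members had 2 risers. The lists of 4 mitochondrial members, 12 members of the nucleus and of RNA handling and 2 meiotic members had 0 calls by limma, edgeR or DESeq2, and at an unadjusted p under 0.05 they had 0, 1 and 1. The latter were Ccdc106 and Ccdc36, which also passed the adjusted p at less than 1.5-fold, as given above. The 59 members on no list held 7 fallers and 2 risers. All these counts are read beside 8.22% lower and 6.13% higher among all genes, and no list was tested against that background. Within sperm formation, Ccdc42, of the manchette and the base of the tail, and Ccdc87, of the acrosome, were at −0.11 ± 0.09 and −0.01 ± 0.13 and did not pass the test. Ccdc183 did pass at less than 1.5-fold (−0.54 ± 0.12 SE, adjusted p = 0.00387).

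The levels of the members were ranked per kilobase of exon, and on that scale the 5 highest over all libraries were Ccdc136 (5203 normalized counts per kilobase), Ccdc181 (3158), Ccdc54 (2674), Ccdc92 (2593) and Ccdc65 (2581). In WT alone Ccdc136 stood at 6469.6 and Ccdc54 at 4043, and in KI at 3937 and 1304, which put Ccdc54 below Ccdc181, Ccdc92 and Ccdc65 in KI. Ccdc181, a flagellar protein, was at 6557 ± 477 normalized counts in WT and 5499.9 ± 551 in KI (SD, n = 5) and did not pass the test (log2 fold change −0.26, adjusted p = 0.0629). The median over the 130 members was 137 per kilobase, against 63.9 for all genes tested with a length.

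Members that share a number in their symbol, and the 2 antisense transcripts, made 11 pairs, compared by the log2 ratio of their values in each library, not divided by length, with no test. The ratios serve to compare genotypes and not the levels of the paired genes. The log2 ratio of Ccdc28a to Ccdc28b was 4.65 ± 0.30 in WT and 3.81 ± 0.33 in KI (SD, n = 5), and Ccdc28b itself was at 36.7 ± 10.1 in WT and 39.3 ± 13.3 in KI. That of Ccdc92 to Ccdc92b was 7.94 ± 0.18 in WT and 6.84 ± 0.19 in KI. In these pairs, in Ccdc9 with Ccdc9b and in Ccdc71 with Ccdc71l, the ratios of KI and WT libraries did not overlap. In the other 7 pairs they did, among them Ccdc7a with Ccdc7b and Ccdc42 with Ccdc42os. Each pair without overlap holds a member given above as changed (Ccdc28a, Ccdc92, Ccdc9b or Ccdc71), so its ratio is not a separate result.

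**Figure D4:**
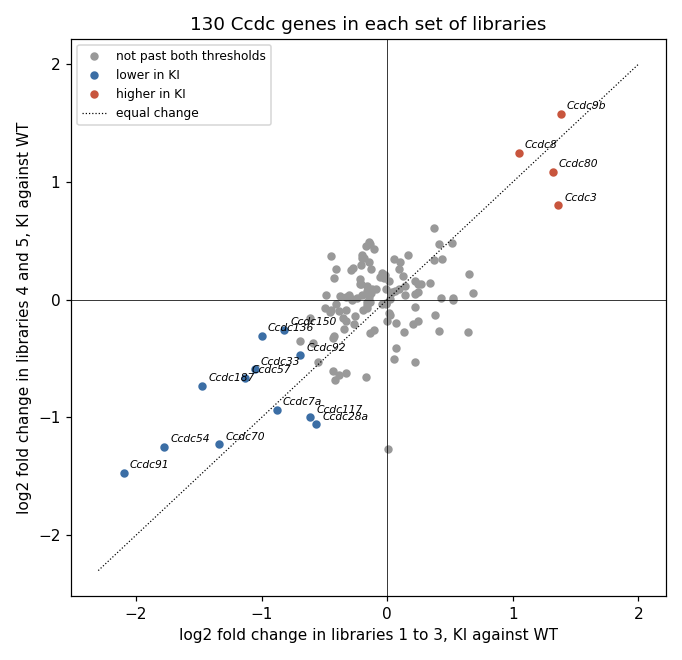
Log2 fold change of KI against WT in libraries 1 to 3 (horizontal axis) and in libraries 4 and 5 (vertical axis) for the 130 Ccdc genes, with the line of equal change. All 16 genes, called over both sets together, keep their sign in each set. Ccdc136 (−0.999 and −0.305) and Ccdc150 (−0.82 and −0.26) lie far from the line.

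The size of the changes differed between the library sets, as the plot of one set against the other shows. All 16 called genes had the same sign in both, but they were called over these same libraries, so this is not a separate check. Ccdc91 was at −2.10 in libraries 1 to 3 and −1.47 in libraries 4 and 5, Ccdc187 at −1.47 and −0.73, and Ccdc136 at −0.999 and −0.305. Ccdc28a and Ccdc117 went the other way, from −0.56 to −1.06 and from −0.611 to −0.998. In WT, libraries 4 and 5 had a lower mean log2 value than libraries 1 to 3 in 10 of the 12 fallers and in 80 of the 130 members. In KI the same held in 8 of the 12 fallers. The share over all genes was not computed. The members' median was −0.14 for libraries 1 to 3 against 0.02 for libraries 4 and 5, and that of all genes was 0.02 for both. Ccdc84, a spliceosomal protein, was at 0.01 in the first set and −1.27 in the second, on counts of 17.5 to 47.1, and did not pass the test over all libraries (adjusted p = 0.203).

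Genes that once bore a Ccdc symbol, and genes of complexes or structures that hold members, were described by lists. Their counts are read beside the same 8.22% lower and 6.13% higher among all genes. Of 24 genes that once bore a Ccdc symbol, 3 were down-regulated and 0 up-regulated, which is near that background: Deup1, which builds deuterosomes (−0.69 ± 0.09 SE, adjusted p = 6.47e-05), Vps50, of the endosomal recycling complex (−0.75 ± 0.13 SE, adjusted p = 0.000561), and Sgf29, a reader of methylated histone H3 (−0.78 ± 0.17 SE, adjusted p = 0.00302). Of 8 further subunits of the nexin-dynein regulatory complex 0 were called by limma, edgeR or DESeq2, with 1 at an unadjusted p under 0.05. That gene, Fbxl13, also passed the adjusted p at less than 1.5-fold (−0.45 ± 0.10 SE, adjusted p = 0.00353). Drc1 and Drc7 of this complex are also among the 24 genes that once bore a Ccdc symbol. Of 13 Commander subunits, the partners of Ccdc22 and Ccdc93, only Commd3 was down-regulated (−0.61 ± 0.15 SE, adjusted p = 0.00896).

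Of 9 genes of the junction between sperm head and tail, 5 were down-regulated and 0 up-regulated: Odf1 (−2.55 ± 0.14 SE, adjusted p = 1.39e-08), Pmfbp1 (−1.24 ± 0.11 SE, adjusted p = 1.48e-06), Spata6, Hook1 and Cep112. Their median was −0.74, against 0.03 for all genes, and it was −0.51 when libraries were scaled to their totals. The list was chosen with earlier results of these data known and was not tested. Of 8 outer dynein arm genes, Efcab1 was down-regulated (−2.88 ± 0.28 SE, adjusted p = 3.19e-06) and Dnah5 up-regulated (1.16 ± 0.26 SE, adjusted p = 0.00416), while the docking members Ccdc114 and Ccdc151 had no call. The counts of both lists are also read beside 8.22% lower and 6.13% higher among all genes.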

How the data were processed

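The deposited values are a signal per gene and library that the authors made by aligning reads to mm10 with STAR, counting them on RefSeq genes in Partek and dividing by DESeq2 size factors. Each library's values stepped by what 1 read is worth (whole for 100% of values under 5000 reads, within 0.1 of a read), so reads were recovered for the alternatives. A log-scale test was used because the values are normalized. limma (3.58.1, R 4.3.3) with a variance trend was fitted to log2(value + 1) with genotype as the only term, on the 15389 genes passing filterByExpr of edgeR (4.0.16), with Benjamini-Hochberg adjustment over all of them. Fold changes on this scale understate those of low genes. Genes were called at an adjusted p under 0.05 and a fold of at least 1.5. Alternatives were other scalings, pseudocounts of 0.1 and 10, other filters and thresholds, edgeR, DESeq2 (1.42.0), a replicate block, a term for libraries 4 and 5, each library set alone and leaving out each library. The fits were tested on simulated data.

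The number of value columns that could not be matched to a library was 0. Same-numbered libraries deviated together after genotype means were removed (r = 0.306, 0.105, 0.280, 0.216 and 0.462). The own number was the best match for every library except the KI library 2 and the WT library 3. The split into library sets, which both genotypes share, can raise these r values, though it would not favor the own number within a set. No label gives pairs, so pairing was not established, and the numbers served as pairs only in the replicate block, not in the main fit. The pairs come from the data and not from the labels. No library duplicated another, since chi-square over its degrees of freedom was at least 2.67 for any 2 replicates.

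The members and lists were chosen with earlier results of these data known, and the role lists were written from general knowledge. Genes named are the members past both thresholds, with values in every library for those with a mean of at least 100 in the higher group, members nearest the thresholds, the 5 highest per kilobase, the axonemal, sperm formation and meiotic members, and called genes of the partner lists. Ccdc22, Ccdc28b, Ccdc60, Ccdc13, Ccdc184 and Ccdc84, and the members with an adjusted p under 0.05 below the fold, were added after their values were seen, as were the pairs of like-numbered genes and the promoter measures. Fbxl13 and the single cell-type markers named were added in the same way. Gene positions are those of the authors' table, and exon lengths and shared exon bases come from GENCODE. Of the members, 50 share exon bases with another annotated gene, and 26 do so with another gene of the table. In 34 members another gene covers more than 5% of the exon bases. These overlaps are named above for only some of the members.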

Additional observations from a re-analysis of the deposited data

Results flagged for a closer look

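Of 68 groups of 5 libraries examined (34 named Ccdc genes in each genotype), 4 held a library far from the other 4, and chance flags about 1 in 20 such groups. In WT, library 4 was the highest for Ccdc117 at 3071 normalized counts (the others 2205 to 2407) and for Ccdc106 at 356 (the others 223 to 244), and it was the lowest for Ccdc3 at 8.02 (the others 13.9 to 16.0). In KI, library 5 was the lowest for Ccdc169 at 473 (the others 757 to 817).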

How the results depend on the processing

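Up-regulated Ccdc genes numbered 4 in the main analysis, 10 when scaled to library totals, 1 with a mean of at least 50, 0 in libraries 4 and 5 alone and 8 without a fold threshold. Down-regulated ones numbered 12, and 7 when scaled to library totals, 24 without a fold threshold and 4 at a fold of at least 2. The median log2 fold change of −0.05 was 0.18 when scaled to library totals (all genes 0.25), 0.0419 to the upper quartile (all genes 0.12) and −0.14 in libraries 1 to 3. Non-overlapping genes numbered 24 (18.5%, all genes 17.7%), and, in checks chosen after seeing the data, 14 when scaled by spermatocyte markers (10.8%, all genes 10.7%) and 66 in libraries 1 to 3 alone (50.8%, all genes 43.8%). Leaving out each library gave 4 to 4 up-regulated and 10 to 14 down-regulated genes, with medians of −0.09 to −0.04. Non-overlapping genes then numbered 24 to 32 (18.5% to 24.6%, all genes 18.9% to 22.1%). Ccdc65 turned to 0.16, 0.0282 and 0.0752 when scaled to library totals, to the upper quartile and in libraries 4 and 5. The causes were not tested, apart from the thresholds, the filter and the fewer libraries, which act by construction.

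The replicate block gave 12 down-regulated and 4 up-regulated genes, the same genes as without it, and edgeR and DESeq2 gave the same counts. Ccdc91, Ccdc54, Ccdc70 and Ccdc187 were called under all 28 alternatives. Over the 16 called genes 411 of 445 refits kept the call, 34 lost it and 0 reversed. Scaled to library totals, the calls of Ccdc117, Ccdc28a, Ccdc136, Ccdc92 and Ccdc150 were lost. Ccdc150 kept its call in 18 of 28 and Ccdc92 in 21. Counting is not stated to use strand.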
